A study of Homo sapiens with 8 samples.

Results

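The genes described here are the AP-1 subunit genes JUN, JUNB, JUND, FOS, FOSB and FOSL2 and the zinc-finger gene EGR1, together 7 of the 16525 genes in the deposited expression table. They were taken from the table by symbol, and the set was proposed with earlier results of these data known. Expression was measured by stranded RNA sequencing in EndoC-βH5, a commercial human beta-cell line derived from fetal pancreas and freed of its immortalizing transgenes by the supplier. The control group was 4 untreated samples and the cytokine group was 4 samples exposed to a mixture of 3 cytokines, and both were harvested at 48 h. The mixture held 50 U/mL of IL-1β with 1000 U/mL each of IFNγ and TNFα. The comparison addresses how the transcriptome of these beta cells responds to the cytokine mixture. The labels do not say whether the 4 samples of a group came from separate cultures, so p-values measure the spread between these samples, which may be technical.

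AP-1 is a family of dimers that bind DNA through a basic leucine zipper. A dimer joins 2 JUN proteins or 1 JUN and 1 FOS protein, and some subunits also pair with ATF, BATF or MAF relatives. FOS, FOSB, JUN, JUNB and EGR1 are classic immediate-early genes: MAP kinases activate factors already bound at their promoters, transcription starts within minutes, and the transcripts are short-lived. JUND is typically expressed without stimulation, and FOSL2 is induced more slowly. In the beta cell, IL-1β and TNFα are known activators of the JNK and p38 kinases, which phosphorylate JUN and ATF2. EGR1 is read out from the same upstream kinases through SRF and ELK factors, and glucose and calcium also induce it in beta cells. For this line, however, the authors report that phosphorylated JNK did not change soon after cytokine exposure. They also report very low RNA of the IL-1β and TNFα receptors, with more RNA of the IFNγ receptors. Whether JNK was active at 48 h was not tested.

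Short stretches of the promoters are shown because they hold the letters that tie these genes to such upstream factors. They come from the RefSeq promoter windows on GRCh38.p14, which run from 250 bases before to 50 bases after each start of transcription, and all 7 genes had a window. The motifs searched on both strands were the cyclic AMP response element TGACGTCA and its shorter core TGACGT, bound by CREB and ATF proteins, the AP-1 site TGAGTCA, the variant TGACATCA known from the JUN promoter, the EGR site GCGTGGGCG, and the CArG box, the site of SRF. The core is part of the full response element, so the 2 overlap. Capitals mark the matches, and each sequence is read 5′ to 3′ on the strand of its gene.
JUN: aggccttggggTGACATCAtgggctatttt
JUND: tgcaaatgagcgACGTCAcccgcacccaat
FOS: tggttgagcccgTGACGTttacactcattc
FOSB: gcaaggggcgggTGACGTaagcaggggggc
FOSL2: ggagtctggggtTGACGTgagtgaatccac
EGR1: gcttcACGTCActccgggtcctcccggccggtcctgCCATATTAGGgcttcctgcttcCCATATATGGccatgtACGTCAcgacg

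These stretches lie at chr1:58784096-58784125 (JUN, minus strand), chr19:18281692-18281721 (JUND, minus), chr14:75278752-75278781 (FOS, plus), chr19:45467924-45467953 (FOSB, plus), chr2:28392780-28392809 (FOSL2, plus) and chr5:138465338-138465422 (EGR1, plus). The TGACGT core lay 64 to 59 bases upstream of the start in FOS, 60 to 55 bases upstream in FOSB and 66 to 61 bases upstream in FOSL2. In JUN the variant site lay 67 to 60 bases upstream, and in EGR1 a core on the opposite strand lay 67 to 62 bases upstream. FOS, FOSB, FOSL2, JUN and EGR1 thus carried related letters at nearly the same distance from the start. The JUN variant was searched because it was known from that promoter, so its match in JUN was fixed in advance. The cores of JUND and the other core of EGR1 lay further upstream. How many of all windows hold a match at this distance was not computed. By GENCODE 29 the FOS match was just upstream of the gene, the FOSB match was upstream of FOSB and inside ERCC1 on the opposite strand, the FOSL2 match was in an intron of a longer transcript, and the JUN match was in the untranslated part of an exon.

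EGR1 held 2 CArG boxes, 105 to 96 and 83 to 74 bases upstream, and 2 cores at 136 to 131 and 67 to 62 bases. Within these windows, 250 bases before to 50 after the start, no other gene of the 7 held a CArG box, a motif found in 1.29% of all 35116 RefSeq windows. Sites further upstream, such as the known SRF site of FOS, were outside the search. The core was found in 5 of the 7 genes and in 7.98% of windows. JUND held a core 87 to 82 bases upstream and a full response element 200 to 193 bases upstream, a motif of 1.85% of windows, and its sequence was:
JUND: ggccgcccccaTGACGTCAacccacaaggc
This stretch lies at chr19:18281804-18281833 (minus). The variant site was found in 2.61% of windows, and the AP-1 site in 4.95% of windows and, among the 7 genes, in FOSL2 only, just after its start. JUNB held none of the searched letters in its window, and no gene of the 7 held the EGR site, which is in 0.795% of windows. A match describes letters and says nothing about binding in these cells.

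**Figure D1:**
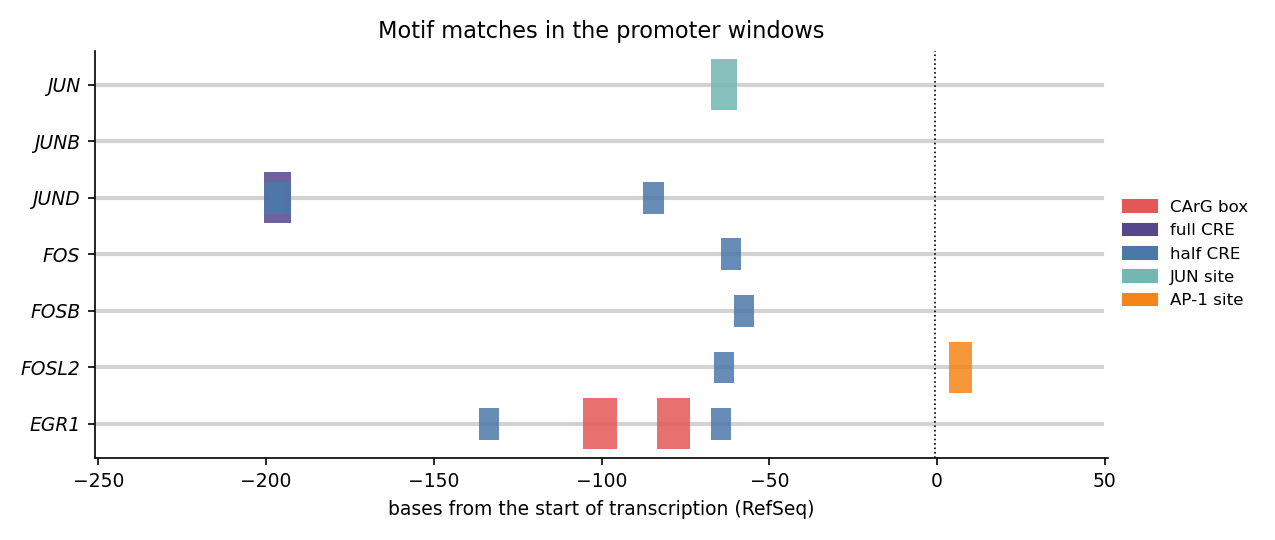
Positions of the motif matches in the promoter windows of the 7 genes, as bases from the RefSeq start of transcription (dotted line), with 1 row per gene and 1 colour per motif. A match in each of FOS, FOSB, FOSL2, JUN and EGR1 lies between 67 and 55 bases upstream. The 2 CArG boxes are in EGR1, and the JUNB row is empty.

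Expression was given as CPM, the reads of a gene scaled to a common library total. Reads on listed genes numbered 36577438 to 40117636 per library, and 1 read was worth 0.0196 to 0.0214 CPM, so a count of 0 would allow up to 0.0641 CPM by counting error alone. The column names carry no replicate number, but each control library begins its name like exactly 1 cytokine library, which gives pairs A to D. Pairs A and B end alike in their names, and so do C and D, which makes 2 sets of libraries. Each library expressed 12 of 12 beta-cell markers, including INS at 1158 to 2905 CPM in control and 1445 to 2172 CPM in cytokine libraries. By the rule for calls given below, 6 of these 12 markers were called lower with cytokines and 6 did not pass. The mean CPM of the 6 went from 51.6 to 8.79 for G6PC2 (log2 fold change -2.60, limma adjusted p = 1.72e-05), from 22.5 to 4.57 for MAFA (-2.27, limma adjusted p = 2.12e-05), from 505 to 219 for SLC30A8 (-1.20, limma adjusted p = 0.000178), from 761 to 423 for ABCC8 (-0.84, limma adjusted p = 0.00146), from 383 to 222 for PDX1 (-0.78, limma adjusted p = 0.000451) and from 105.9 to 73.1 for NKX2-2 (-0.52, limma adjusted p = 0.0419). NKX2-2 was close to both limits of that rule, and these marker calls are given on CPM without further scaling only. Of the 6 that did not pass, log2 fold changes were 0.93 for IAPP, 0.42 for PCSK1 and 0.39 for CHGA and NKX6-1. INS and UCN3 had -0.17 and -0.26. The 12 beta-cell markers summed to 24676 to 36933 CPM in control and 29649 to 53089 CPM in cytokine libraries. CHGA alone averaged 19221 and 25501 CPM. None of the 4 immune and 2 endothelial markers was in the table. The 2 stromal markers in the table of 5 listed summed to 3.56 to 5.30 CPM in control and 4.29 to 6.41 CPM in cytokine libraries. The 2 acinar and ductal markers in the table of 5 listed summed to 88.2 to 167 CPM and 84.6 to 166 CPM, most of it KRT19, while CPA1, the acinar marker of the pair, fell from 8.41 to 4.04 CPM (log2 fold change -1.06, limma adjusted p = 0.00201). The other islet hormones, 4 of 4 in the table, summed to 463 to 2177 CPM in control and 553 to 1996 CPM in cytokine libraries. The part of these marker changes in the results was not tested.

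All 7 genes were higher after 48 h of cytokines, by 1.49-fold for JUNB to 18.4-fold for FOS. A gene was called when the log2 fold change of CPM + 0.1 exceeded 0.5 and the adjusted p of limma fell below 0.05. By this rule 7 of 7 were called higher and 0 lower (also 0 lower at an unadjusted p below 0.05, and by edgeR and DESeq2), against 9.52% of all 16525 genes called higher and 17.5% called lower. Called genes of the lists described below are read against the same shares. With TMM scaling before the log2, limma called 2154 genes higher and 1933 lower, and again 7 of 7. In 7 of 7 the 4 cytokine libraries all lay above the 4 control libraries, which was so for 10.8% of all genes, and the 2-sided exact permutation test of 4 against 4 gave its smallest possible p of 0.0286 for each. edgeR with TMM scaling on recovered reads also called 7 of 7 higher, against 13.0% of all genes. FOSB met the filter of 0.5 CPM in at least 4 samples only with its cytokine libraries, so its part in these counts is no independent support. The median log2 fold change was 2.07 over the 7 genes and -0.17 over all genes, and with TMM scaling the median over all genes moved to -0.02. In bulk RNA, fewer cells of a kind and less RNA per cell cannot be told apart.

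**Figure D2:**
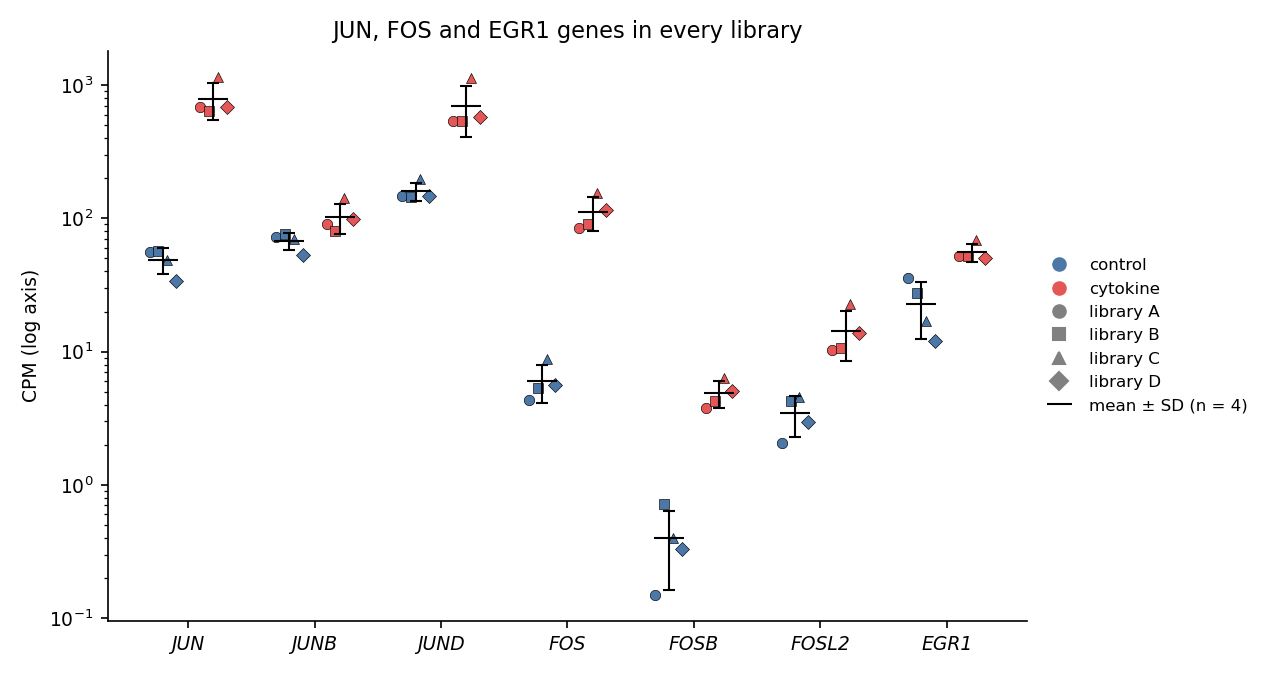
CPM of each gene in every library on a log axis, control in blue and cytokine in red, with marker shapes for libraries A to D and black bars for the mean ± SD of 4 libraries. JUN moved from 33.7 to 56.9 CPM in control libraries to 645 to 1158 CPM in cytokine libraries, whereas the JUNB groups lay close together, at 53.4 to 76.2 and 80.2 to 141 CPM.

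JUN encodes the subunit that gave the family its name and the main substrate of JNK. It lies on chromosome 1 at 58780788 to 58784327, minus strand (GENCODE 29, GRCh38, as for all genes below). Its control libraries A to D held 55.8, 56.9, 48.5 and 33.7 CPM, and its cytokine libraries held 685, 645, 1158 and 684 CPM. Cytokine library C stood highest, and the lowest cytokine library was still far above the highest control library. The mean rose from 48.7 ± 10.7 to 793 ± 244 CPM (SD over n = 4, as in all values below), which is 4.01 as a log2 fold change (SE 0.22, limma adjusted p = 2.92e-07). Among the 9304 genes with a control mean of at least 10 CPM, JUN had the 9th highest log2 fold change. By mean CPM it moved from rank 3379 to rank 71 of all genes.

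JUND (chromosome 19, 18279760 to 18281622, minus strand) encodes the subunit usually expressed in resting cells. Control libraries A to D held 148, 146, 196 and 147 CPM, and cytokine libraries held 541, 542, 1129 and 578 CPM. Library C was the highest in both groups, and the other 3 cytokine libraries lay close together. The mean rose from 159 ± 24.6 to 697 ± 288 CPM, a log2 fold change of 2.07 (SE 0.23, limma adjusted p = 8.10e-05). Its rank by mean CPM moved from 749 to 84.

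JUNB (chromosome 19, 12791496 to 12793315, plus strand) encodes a subunit that can compete with JUN for partners. Control libraries held 73.1, 76.2, 69.7 and 53.4 CPM and cytokine libraries held 90.8, 80.2, 141 and 98.6 CPM. The groups did not overlap, but cytokine library B stood only just above control library B. JUNB had the smallest change of the 7, from 68.1 ± 10.2 to 102.6 ± 26.7 CPM, a log2 fold change of 0.57 (SE 0.18, limma adjusted p = 0.0346), close to the threshold. The call was lost without control library C (0.59, limma adjusted p = 0.0528) or D (0.46, 0.0962), and without cytokine library A (0.62, 0.0506), C (0.41, 0.0670) or D (0.58, 0.0654). JUNB and HOOK2, on the opposite strand, share 259 exon bases, and HOOK2 held 88.4 to 123.5 CPM in control and 95.04 to 122.7 CPM in cytokine libraries. How far reads of HOOK2 entered the JUNB values was not tested.

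FOS (chromosome 14, 75278774 to 75282230, plus strand) encodes the best-known partner of JUN and is a standard marker of recent stimulation. Its control libraries held 4.30, 5.36, 8.78 and 5.65 CPM and its cytokine libraries held 85.4, 91.5, 156 and 115 CPM. Library C was again highest in both groups. FOS rose from 6.02 ± 1.93 to 112 ± 32.1 CPM, a log2 fold change of 4.20 (SE 0.24, limma adjusted p = 4.05e-07), the largest of the 7 and the 114th highest of all genes. The change was nearly the same in every pair, from 4.07 in B to 4.32 in D on the log2 scale.

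FOSB (chromosome 19, 45467995 to 45475179, plus strand) encodes a FOS relative whose truncated form is long-lived in neurons. It was barely detected without cytokines, with 0.150, 0.720, 0.398 and 0.332 CPM, which were 7 to 34 reads. Cytokine libraries held 3.77, 4.29, 6.30 and 5.10 CPM, or 177 to 313 reads. The mean rose from 0.400 ± 0.238 to 4.87 ± 1.10 CPM, a log2 fold change of 3.41 (SE 0.35, limma adjusted p = 3.76e-05). With so few control reads the size depended on the pseudocount, and with a pseudocount of 1 in place of 0.1 it was 2.06. FOSB met the filter of 0.5 CPM in at least 4 samples only with its cytokine libraries, which favoured a rise in advance.

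FOSL2 (chromosome 2, 28392448 to 28417312, plus strand) encodes FRA-2, a slower FOS relative that lacks the strong activation domain of FOS. Control libraries held 2.05, 4.23, 4.60 and 2.95 CPM and cytokine libraries held 10.3, 10.6, 22.7 and 13.8 CPM. All cytokine libraries held more than 2-fold the highest control library. The mean rose from 3.46 ± 1.17 to 14.4 ± 5.80 CPM, a log2 fold change of 2.01 (SE 0.30, limma adjusted p = 0.000646).

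EGR1 (chromosome 5, 138465490 to 138469315, plus strand) encodes a zinc-finger factor that binds GC-rich promoters. Its control libraries held 35.5, 27.4, 16.9 and 12.1 CPM, and its cytokine libraries held 51.9, 52.0, 68.5 and 50.5 CPM. The spread was in the untreated cells, where libraries A and B held more than C and D, whereas cytokine libraries A, B and D lay close together. The mean rose from 23.0 ± 10.5 to 55.8 ± 8.55 CPM, a log2 fold change of 1.38 (SE 0.29, limma adjusted p = 0.00429).

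**Figure D3:**
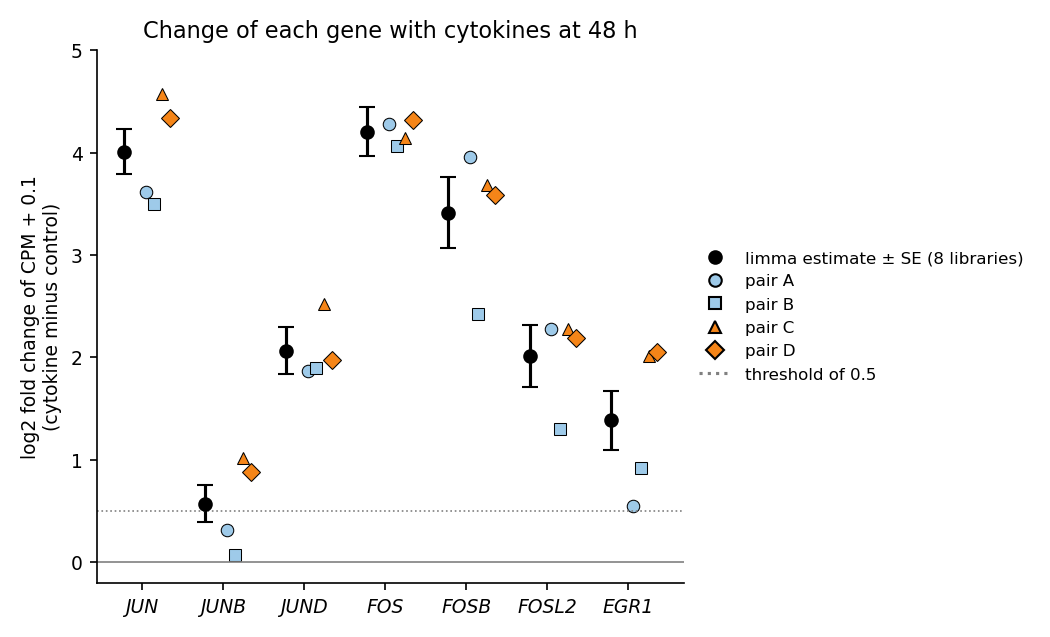
Log2 fold change of CPM + 0.1 (cytokine minus control) per gene: black points are the limma estimate with its SE over 8 libraries, and coloured points are the 4 pairs of libraries, A and B in blue, C and D in orange. All 28 pair values are above 0. In JUN, JUNB, JUND and EGR1 the C and D pairs lie above the A and B pairs, in JUND only just for D (1.97 against 1.90 in B).

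The changes were set against the 2 sets of libraries that the column names give. EGR1 rose by a log2 fold change of 0.74 within A and B and of 2.03 within C and D, a difference of 1.30 (SE 0.28, limma adjusted p = 0.572 over all genes). JUN rose by 3.56 and 4.46, a difference of 0.90 (limma adjusted p = 0.999). For JUNB the log2 fold changes were 0.19 and 0.95, a difference of 0.76 (limma adjusted p = 0.999), and the value within A and B was under the threshold. FOS differed by only 0.06 between the sets. After adjustment 0 of the 7 genes passed this limma test of the difference, which 0.0303% of all genes did, and 3 had an unadjusted p below 0.05. The same difference was not fitted with another tool.

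Levels of different genes were compared as TPM, which divides the reads by transcript length and scales each library to a common total. In control libraries the order of TPM was JUND (331 ± 86.1), JUNB (142 ± 14.7), JUN (51.7 ± 7.14), EGR1 (26.8 ± 9.11), FOS (7.29 ± 3.09), FOSL2 (1.87 ± 0.722) and FOSB (0.273 ± 0.142), each SD over n = 4. No 2 neighbours in this order overlapped between libraries. In cytokine libraries the order of TPM was JUND (1582 ± 769), JUN (942 ± 360), JUNB (238 ± 81.6), FOS (146 ± 55.2), EGR1 (74.2 ± 16.9), FOSL2 (8.53 ± 4.13) and FOSB (3.70 ± 1.19). JUND and JUN overlapped there, as did JUNB and FOS, although within each of the 4 cytokine libraries JUND was above JUN and JUNB above FOS.

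The summed TPM of the 6 AP-1 genes was 462 to 682 in control and 2050 to 4749 in cytokine libraries. JUND stayed the largest part, with 56.4% to 65.8% of the sum in control and 51.6% to 57.0% in cytokine libraries. JUN went from 7.92% to 11.6% of the sum in control to 30.8% to 34.4% in cytokine libraries. Over the same libraries JUNB went from 23.8% to 30.2% down to 7.29% to 9.09%, although its own CPM was higher with cytokines. FOS made up 0.969% to 1.69% in control and 4.54% to 5.95% in cytokine libraries, and FOSB and FOSL2 stayed under 1% in every library.

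**Figure D4:**
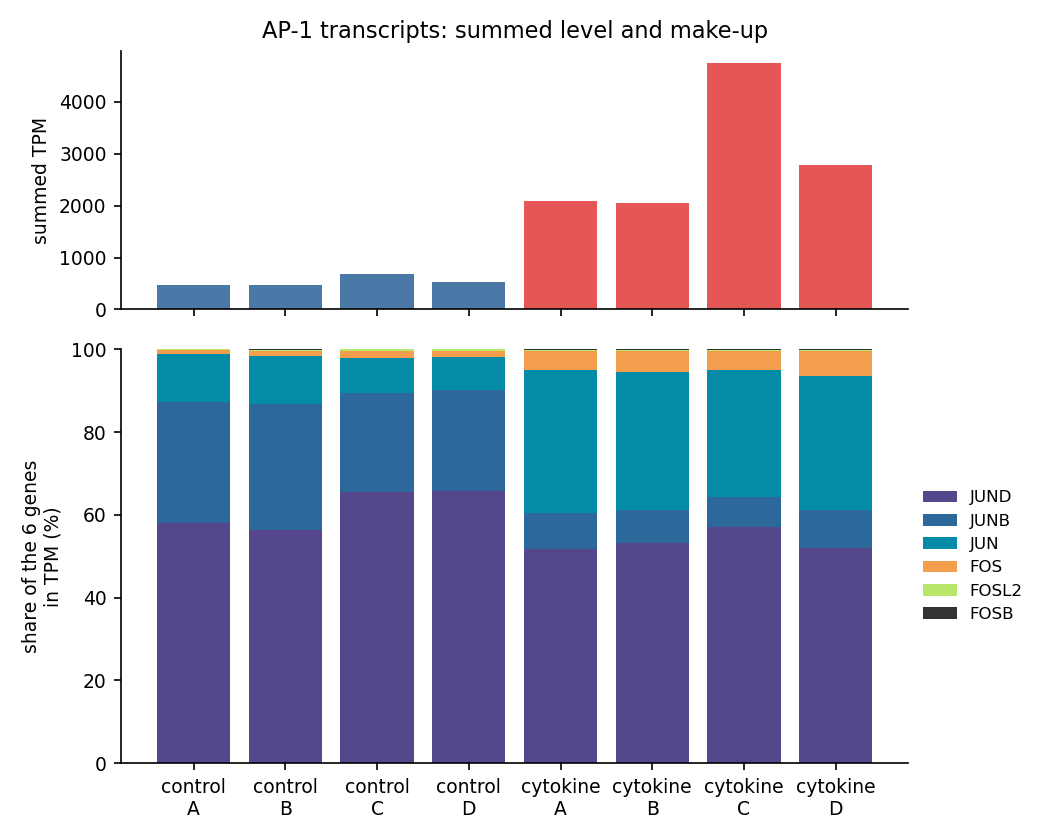
Upper panel: summed TPM of JUN, JUNB, JUND, FOS, FOSB and FOSL2 in each library. Lower panel: the share of each gene in that sum, in percent. JUN fills 30.8% to 34.4% of the cytokine bars against 7.92% to 11.6% of the control bars, and JUNB fills 7.29% to 9.09% against 23.8% to 30.2%.

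The remaining variation between libraries was described by correlating log2(CPM + 0.1) over the 8 libraries after the mean of each condition was subtracted. These are descriptions without a test, and the points share libraries, depth and the sets of libraries. Between the sets, deviations of control and cytokine libraries correlated by -0.65 to -0.41 over genes averaging 1 CPM or more. How far the sets shaped the values below was not tested. Among 14682 other genes that averaged 1 CPM or more, EGR1 was most like BTG2 (r = 0.987), CNTFR (0.971) and BCL3 (0.968). JUN was most like C15orf62 (0.973), JUNB (0.965) and KCNG2 (0.964), and FOS was most like JAGN1 (0.995), ARL3 (0.992) and EDF1 (0.991). Of the 21 pairs among the 7 genes, JUN and JUNB had the highest r and EGR1 and FOS the lowest (-0.25).

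The wider pathway was followed in 7 lists of 109 genes, of which 94 were in the table and 15 were not. Among other AP-1 subunits and partners, 9 of 13 tested genes were called higher and 1 lower, with a median log2 fold change of 1.13 against -0.17 for all genes. ATF3, a stress-induced partner of JUN, rose from 1.95 ± 0.381 to 140.5 ± 52.6 CPM, a log2 fold change of 6.05 (SE 0.24, limma adjusted p = 2.41e-08), larger than that of any of the 7 genes. BATF2, an interferon-induced zipper protein that pairs with JUN proteins, rose from 4.88 ± 0.598 to 211 ± 23.0 CPM (5.40, SE 0.13, limma adjusted p = 8.74e-10). MAFF, a small MAF protein without an activation domain, rose from 1.61 ± 0.217 to 46.4 ± 22.5 CPM (4.67, SE 0.27, limma adjusted p = 4.25e-07). FOSL1, BATF3 and JDP2, also called higher, met the filter of 0.5 CPM in at least 4 samples only with their cytokine libraries. This favoured a rise of these genes in advance.

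EGR3 and EGR4, relatives of EGR1 that bind the same sites, were lower with cytokines. Of the EGR family and its corepressors, 0 of 5 were called higher and 2 lower, with a median log2 fold change of -0.52. EGR3 fell from 4.04 ± 0.621 to 1.56 ± 0.380 CPM (log2 fold change -1.34, SE 0.23, limma adjusted p = 0.00129), and EGR4 fell from 4.70 ± 1.28 to 2.01 ± 0.928 CPM (-1.24, SE 0.31, limma adjusted p = 0.0107). The other 3 genes did not pass. At an unadjusted p below 0.05 limma also gave 0 higher, and edgeR and DESeq2 called 0 higher. When limma took the pairs as a replicate block, 1 was called higher and 3 lower.

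Of 22 other early response genes 13 were called higher and 0 lower, with a median log2 fold change of 0.92, and no gene was lower at an unadjusted p below 0.05 in limma or called lower by edgeR or DESeq2. KLF4, a zinc-finger factor of differentiation and growth arrest, rose from 2.104 ± 0.606 to 63.6 ± 15.4 CPM (4.87, SE 0.23, limma adjusted p = 7.99e-08). NPAS4, an activity-induced factor of neurons and beta cells, rose from 0.154 ± 0.0876 CPM, at most 13 reads, to 2.92 ± 0.906 CPM (3.59, SE 0.32, limma adjusted p = 1.40e-05). GADD45B, a stress gene that binds MAP kinase kinases, rose from 2.44 ± 0.890 to 27.3 ± 13.2 CPM (3.39, SE 0.32, limma adjusted p = 2.25e-05). Of the 13, NPAS4 and SIK1 met the filter of 0.5 CPM in at least 4 samples only with their cytokine libraries. Their rise was favoured in advance.

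Of 24 genes of the MAP kinase cascade, which relays the signal, 0 were called higher and 3 lower by limma on CPM, and 2 higher and 1 lower with TMM scaling. At an unadjusted p below 0.05 limma had 2 higher, and edgeR and DESeq2 each called 2 higher. The median log2 fold change on CPM was -0.15, beside -0.17 for all genes. MAP2K6, a kinase that activates p38, fell from 27.9 ± 3.48 to 10.3 ± 1.56 CPM (-1.43, SE 0.15, limma adjusted p = 4.91e-05). MAPK14, which encodes p38α, fell from 22.6 ± 3.79 to 14.4 ± 0.881 CPM (-0.64, SE 0.14, limma adjusted p = 0.00699), and MAPK11, which encodes p38β, fell from 24.5 ± 3.62 to 15.9 ± 1.76 CPM (-0.62, SE 0.15, limma adjusted p = 0.00919). In edgeR with TMM, MAPK14 and MAPK11 missed the fold threshold (-0.49 and -0.47). The 2 genes that edgeR called higher were MAP2K3 (0.86, edgeR adjusted p = 0.0261) and BRAF (0.54, edgeR adjusted p = 0.00141). In limma on CPM, MAP2K3 had 0.63 (limma adjusted p = 0.0879) and BRAF had 0.38 (limma adjusted p = 0.0222), and neither was called. The replicate block gave 1 higher and 4 lower.

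The phosphatases and inhibitors that switch MAP kinases off were called higher in 7 of 14 genes and lower in 2, with a median log2 fold change of 0.64. DUSP1, a nuclear phosphatase of p38 and JNK, rose from 12.4 ± 2.39 to 84.5 ± 18.7 CPM (2.76, SE 0.18, limma adjusted p = 1.39e-06). DUSP10, which prefers the same kinases, rose from 5.83 ± 1.38 to 35.0 ± 4.15 CPM (2.59, SE 0.19, limma adjusted p = 2.71e-06). DUSP9, a cytoplasmic phosphatase of ERK, fell from 22.5 ± 1.66 to 2.03 ± 0.272 CPM (-3.41, SE 0.16, limma adjusted p = 6.99e-08).

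Of 11 regulators of the early promoters 3 were called higher and 0 lower, beside 9.52% and 17.5% of all genes, with a median log2 fold change of 0.31 beside -0.17 for all genes. The replicate block gave 4 and 1. At an unadjusted p below 0.05 limma had 1 lower, and edgeR and DESeq2 called 0 lower. CREM, a CREB relative with activating and repressing forms, rose from 3.86 ± 1.12 to 12.3 ± 6.95 CPM (1.53, SE 0.36, limma adjusted p = 0.00822). The SRF partners ELK1 (0.79, SE 0.17, limma adjusted p = 0.00483) and ELK4 (0.72, SE 0.12, limma adjusted p = 0.00154) also rose. Of 14 known AP-1 and EGR1 target genes 9 were not in the table, and 1 of the 5 tested was called higher, with a median log2 fold change of 0.22, beside the same 9.52% and -0.17 for all genes. This was CCND1, the cell-cycle gene of cyclin D1, with 0, 2, 1 and 2 reads in control libraries and 54, 49, 112 and 69 reads in cytokine libraries. The ratio of its summed reads per total was 57.4, with a 95% exact counting interval of 24.3 to 178.2. CCND1 met the filter of 0.5 CPM in at least 4 samples only through its cytokine libraries. Given its control reads, a rise was the only change it could show, and the count of 1 of 5 carries that limit.

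**Figure D5:**
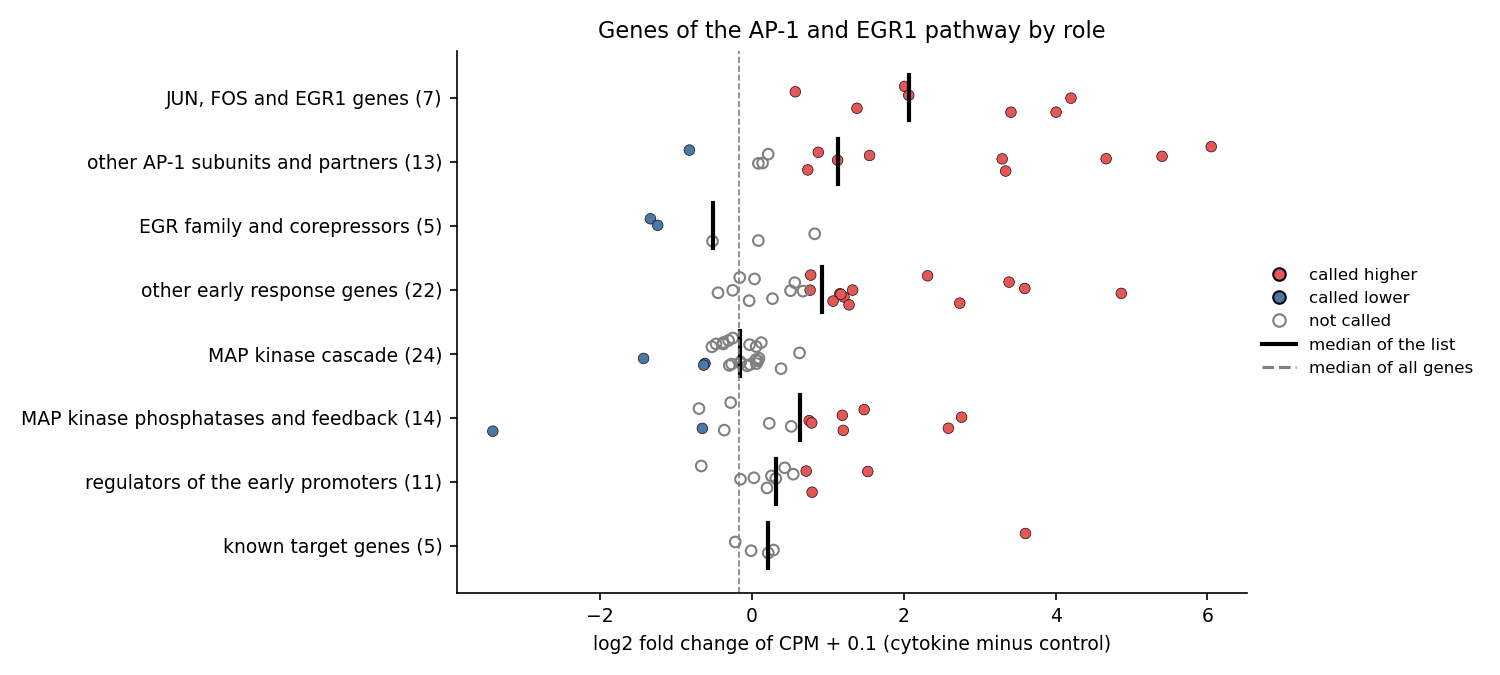
Log2 fold change of CPM + 0.1 (cytokine minus control) of every tested gene, 1 row per list with the number of genes tested in brackets. Filled points were called (red higher, blue lower), open points were not, black bars are medians and the dashed line is the median of all genes. All 7 JUN, FOS and EGR1 genes are red, ATF3 among the other AP-1 subunits lies furthest to the right (6.05), and the MAP kinase cascade centres on the dashed line.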

How the data were processed

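RNA from 8 samples was sequenced by the authors, aligned with TopHat2 2.1.1 to GRCh38 and counted with HTSeq 0.9.1 on Ensembl release 107. The deposited values are CPM, counts divided by library totals of 46767972 to 51145634 reads, for genes above 0.5 CPM in at least 4 samples. Another 4 columns of values were not used. All values (100%) were whole multiples of 1 read within 0.1, which gave reads. limma 3.58.1 (R 4.3.3) was run with an intensity trend on log2(CPM + 0.1) over 16525 genes with Benjamini-Hochberg adjustment. The thresholds were those of the study, 0.5 for the absolute log2 fold change and 0.05 for FDR. edgeR 4.0.16 and DESeq2 1.42.0 were alternatives on recovered reads. TPM used GENCODE 29 exon lengths (16167 genes). Symbols and identifiers are those of the table. Figures used matplotlib 3.10.9.

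The genes and lists were chosen with earlier results of these data known. In each list the 3 called genes of largest absolute log2 fold change are named. In the MAP kinase cascade those that edgeR called higher are also named. Called genes of the lists that met the CPM filter only with their cytokine libraries are named too. For EGR1, FOS and JUN the 3 genes of highest correlation over libraries are named. Pairing by how the column names begin was checked: deviations from the group means correlated by 0.57 to 0.80 within letters, with A and B not told apart, and by -0.65 to -0.41 between the sets A, B and C, D. A chi-square test of read counts found no copied library (at least 5.89 per gene). Libraries A and B were the most alike, at 13.3 in control and 5.89 in cytokine libraries. Other pairs within a condition had 66.6 to 294. The main limma fit treated the 4 libraries of a group as equally separate, so its p-values do not allow for this. Tests were checked on simulated counts with independent libraries and the same dispersion for every gene. The simulation held no pairs or sets, so it does not cover those features of the data. Intervals and limits cover counting error only.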

Additional observations from a re-analysis of the deposited data

Results flagged for a closer look

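A library was looked at again where its gap to the nearest other library of its group exceeded Dixon's limit for 4 values. This was checked in 14 groups of 4 libraries, and chance flags about 1 in 20 of independent groups. The 14 groups hold 7 genes in the same 8 libraries, and several of these genes varied together. They are not independent checks, so the count of flags cannot be read against that rate. In all, 4 values passed the limit, all of them the highest and all in the libraries named C. JUND held 1129 CPM in cytokine library C and 196 CPM in control library C, JUN held 1158 CPM in cytokine library C, and EGR1 held 68.5 CPM in cytokine library C. Without cytokine library C the log2 fold change was 3.81 for JUN and 1.81 for JUND, and both remained called. The share of reads outside the listed genes was 20.1% in control library C and 20.8% in cytokine library C. In libraries D it was highest, at 26.6% and 26.5%. What set libraries C apart was not tested.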

How the results depend on the processing

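FOS, FOSB, FOSL2, JUN and JUND were called higher under all 26 alternatives, which covered scaling, pseudocount, a filter on low values, the test, the thresholds, the replicate block, TPM, sets of libraries and leaving out each library. The count of called genes among the 7 was 5 to 7 throughout, and 0 were called lower. EGR1 missed with limma's treat against 0.5 (log2 fold change 1.38, adjusted p = 0.0595). JUNB kept its direction but lost the call in 9 of 26: without the intensity trend (0.57, adjusted p = 0.0584), with treat (0.57), with TPM (0.69, adjusted p = 0.0631, added after seeing the data), within libraries A and B (0.19) and in 5 of 8 fits without 1 library. Leaving out 1 library gave log2 fold changes of 4.03 to 4.40 for FOS, 3.12 to 3.69 for FOSB, 1.77 to 2.17 for FOSL2, 3.81 to 4.09 for JUN, 0.41 to 0.68 for JUNB, 1.81 to 2.17 for JUND and 1.12 to 1.63 for EGR1. The replicate block moved the called genes to 4 for the EGR family, to 5 for the MAP kinase cascade and to 5 for the promoter regulators, from 2, 3 and 3, and ended no call of the 7 genes, with JUNB at 0.57 and an adjusted p of 0.000973. The share of calls that were higher among all genes depended on scaling: limma called 1574 higher and 2896 lower on CPM, and 2154 and 1933 with TMM. With the length of a representative transcript in place of all exons, TPM was 39.1 for JUN and 106.7 for JUNB in control and 53.9 for EGR1 in cytokine libraries. JUN, JUNB and EGR1 have the same length under both choices (3540, 1820 and 3138 bases), so only the total each library was scaled to differed. JUND, also unchanged at 1863 bases, went from 331 to 247 TPM in control libraries. The cause of the other shifts was not tested. Depth limits FOSB in control libraries, at 7 to 34 reads.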
